A study of Sus scrofa with 18 samples.

Results

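Aminoacyl-tRNA synthetases were followed through 18 RNA-seq libraries of porcine cloned embryos. The genes were taken by their symbols, as every gene of the deposited tables named for a synthetase of 1 amino acid, with or without a final 1 or 2, together with the scaffold genes AIMP1 and AIMP2. The rule found 34 of the 24358 genes listed, of which 18 encode cytosolic enzymes, 14 encode mitochondrial enzymes (symbols ending in 2) and 2 encode scaffolds. The tables use older symbols, so that EPRS, KARS and WARS stand for the genes now called EPRS1, KARS1 and WARS1. AARS1, FARSB, NARS2, SARS2 and YARS2 carry no symbol there and fall outside the rule.

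Each aminoacyl-tRNA synthetase joins 1 amino acid to its tRNA, the step in which the genetic code is read into chemistry. Animal cells keep separate sets for the cytosol and for mitochondria, both encoded in the nucleus, although KARS and GARS each give both forms in mammals. Several cytosolic enzymes sit with the scaffold proteins AIMP1, AIMP2 and EEF1E1 in the multi-tRNA synthetase complex, and an embryo before genome activation relies on such transcripts stored by the oocyte.

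The embryos were made by somatic cell nuclear transfer, with donor cells from the ears of Diannan miniature pigs and oocytes of prepubertal slaughterhouse ovaries matured in vitro. The vitrified groups came from cloned zygotes that were vitrified on Cryotop carriers in ethylene glycol, sucrose and polyvinylpyrrolidone after chemical activation, and the fresh groups from cloned zygotes that were not vitrified. Both developed in the same culture medium, and 3 libraries were made of each treatment at each stage. Pools of 4 embryos were taken as 2-cells after 24 h, pools of 2 as 4-cells after 48 h, and blastocysts singly after 144 h, so that stage, age and embryos per pool cannot be told apart. The values are FPKM, in which the fragments of a gene are scaled by its exon length and by the size of the library and 0.0001 stands for 0, and the counts behind them are not known. In such pooled material, fewer cells of a type and less RNA per cell cannot be told apart.

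Between 7551 and 8841 genes reached 1 FPKM in a library. The mean correlation of a library with the others of its stage was 0.941 to 0.967 in 2-cells and 0.949 to 0.964 in blastocysts, while in 4-cells it was 0.869 to 0.892 in 5 libraries and 0.763 in vitrified replicate 3, which therefore stood apart. That library summed to 290 FPKM over NANOG and SOX2, against 9.62 to 30.2 FPKM in the other 4-cell libraries, and to 175 FPKM over 5 trophectoderm genes, against 5.05 to 54.2 FPKM. By the means of vitrified 4-cells, these sums were almost all NANOG (108 FPKM, with SOX2 at 0.768 FPKM) and TFAP2C (70.2 FPKM). The other 4 trophectoderm genes averaged under 1 FPKM there. The 6 oocyte genes matched (ZP2, ZP3, ZP4, GDF9, BMP15 and ZAR1) summed to 652 to 1422 FPKM in 2-cell and 4-cell libraries and to 1.21 to 3.22 FPKM in blastocysts, where all 6 averaged under 1 FPKM. The 5 trophectoderm genes (CDX2, GATA3, KRT8, KRT18 and TFAP2C) summed to 1947 to 3939 FPKM in blastocysts. Of the inner cell mass genes, NANOG averaged 0.225 FPKM in vitrified and 1.97 FPKM in fresh blastocysts and SOX2 0.0831 FPKM in vitrified and 0.0594 FPKM in fresh blastocysts, so SOX2 was near 0 in both. Genes of cumulus or granulosa cells stayed at or under 5.25 FPKM in sum, and those of fibroblasts at or under 9.95 FPKM.

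The synthetase genes did not share 1 level. In 2-cells RARS2, the mitochondrial arginine enzyme (ENSSSCG00000004303), was the highest of the 34 genes. RARS2 stood at 153, 146 and 148 FPKM in vitrified and 80.3, 205 and 136 FPKM in fresh libraries. FARSB, which falls outside the rule, was higher, averaging 303 FPKM in 2-cells and 240.3 FPKM in 4-cells. EPRS, the fused glutamate and proline enzyme of the cytosol (ENSSSCG00000010821), stood at 144, 129 and 78.6 FPKM in vitrified and 103, 132 and 132 FPKM in fresh 2-cells. LARS, the cytosolic leucine enzyme, stood at 68.4, 77.5 and 63.1 FPKM in vitrified and 56.1, 91.4 and 95.8 FPKM in fresh 2-cells. RARS2 and EPRS overlapped in their libraries, so their order was within the spread. At the other end, CARS, AARS2 and VARS2, for cysteine in the cytosol and for alanine and valine in mitochondria, had no 2-cell library above 0.123 FPKM. CARS was listed at 0.0001 in 3 of the 6 libraries and AARS2 likewise in 3.

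RARS2 was again the highest of the 34 in 4-cells. It stood at 98.1, 93.4 and 17.0 FPKM in vitrified and 78.6, 93.4 and 119 FPKM in fresh libraries. Vitrified replicate 3 was the low one. NARS, the cytosolic asparagine enzyme, was at 52.7, 39.6 and 89.1 FPKM in vitrified and 47.3, 54.9 and 53.5 FPKM in fresh 4-cells, and it was highest in vitrified replicate 3. The lowest in fresh 4-cells were FARSA, FARS2 and VARS2, the catalytic subunit gene for phenylalanine and the mitochondrial phenylalanine and valine enzymes. FARSA was at 0.736, 0.729 and 0.971 FPKM in vitrified and at 0.0628, 0.224 and 0.243 FPKM in fresh 4-cells, with no overlap, all under the 1 FPKM needed for a test. FARS2 stayed at or under 0.283 FPKM and VARS2 at or under 0.515 FPKM in every 4-cell library.

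In blastocysts the highest genes were cytosolic. WARS, the tryptophan enzyme, stood at 97.7, 80.6 and 91.8 FPKM in vitrified and at 154, 117 and 146 FPKM in fresh blastocysts. SARS, the serine enzyme, stood at 107, 87.1 and 101 FPKM in vitrified and at 121, 88.0 and 109 FPKM in fresh blastocysts. GARS, the glycine enzyme, followed at 45.3, 58.9 and 59.9 FPKM in vitrified and 61.2, 65.7 and 52.0 FPKM in fresh libraries. The ranges of SARS and WARS overlapped over the 6 libraries. Among the lowest in fresh blastocysts were VARS2 and the mitochondrial methionine enzyme MARS2. VARS2 was at 0.697, 0.572 and 0.426 FPKM in vitrified and 0.542, 1.10 and 0.639 FPKM in fresh blastocysts. MARS2 was at 2.79, 1.34 and 0.984 FPKM in vitrified and 1.11, 1.32 and 0.866 FPKM in fresh blastocysts. All 18 cytosolic genes reached 1 FPKM in every blastocyst library, against 12 or 13 of them in a 2-cell library. Of the 14 mitochondrial genes, 10 to 13 did so in a blastocyst library and 6 or 7 in a 2-cell library.

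**Figure D1:**
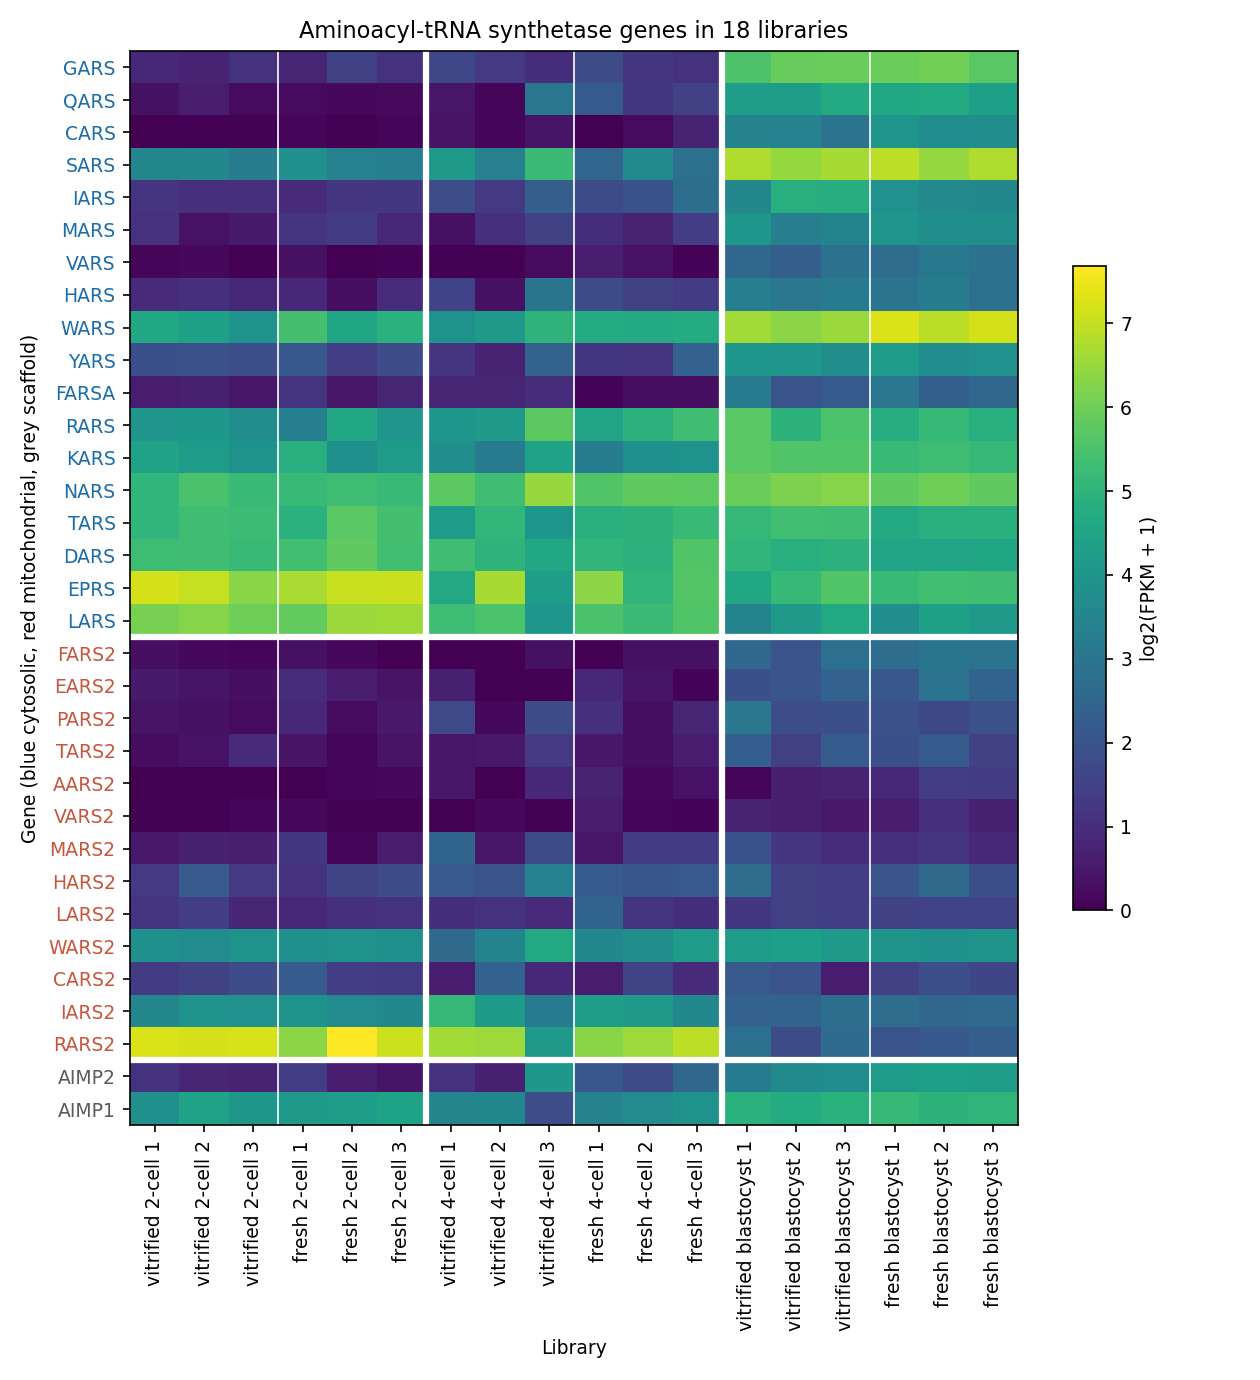
Each row is a synthetase or scaffold gene and each column 1 of the 18 libraries, with the colour giving log2(FPKM + 1), and genes are ordered within cytosolic, mitochondrial and scaffold groups by their change between 2-cells and blastocysts. RARS2 and EPRS are bright in 2-cells, WARS and SARS in blastocysts, and most mitochondrial genes stay dark throughout.

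To see how the genes changed over development, stages were compared with limma on log2(FPKM + 1) over all 18 libraries, where a gene was called at an adjusted p under 0.05 and a change beyond 1 on the log2 scale. The added 1 pulls the change of low genes toward 0. The median of all genes tested was -0.45 between blastocysts and 2-cells and -0.48 between blastocysts and 4-cells, and with scaling by the median ratio -0.03 and -0.13. In blastocysts relative to 2-cells, 27.3% of the 11361 genes that could be tested passed as higher and 39.1% as lower. With scaling by the median ratio 3846 were higher and 3616 lower, in place of 3097 and 4442. Among 32 synthetase genes tested, 18 were called higher and 4 lower. AARS2 and VARS2 were too low to be tested, and 6 others (CARS, FARSA, VARS, EARS2, FARS2 and TARS2) passed the filter only through their blastocyst values. Without that filter, over all 34 genes, 18 were called higher and 4 lower, where 12.6% and 18.1% of all genes were called. The median change over the 34 genes was 1.19, beside 0 for all 24358 genes in the same fit.

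GARS showed the largest rise. Its lowest, median and highest values were 0.682, 0.987 and 1.82 FPKM in 2-cells, 0.990, 1.36 and 2.46 FPKM in 4-cells and 45.3, 59.4 and 65.7 FPKM in blastocysts. No blastocyst library overlapped an earlier one, and the log2 fold change between blastocysts and 2-cells was 4.83 (standard error, SE, 0.19, limma adjusted p = 6.16e-13). QARS, the glutamine enzyme of the complex, had 0.122, 0.171 and 0.514 FPKM in 2-cells, 0.0785, 1.61 and 7.02 FPKM in 4-cells and 18.4, 21.1 and 25.0 FPKM in blastocysts. It rose by 4.19 (SE 0.36, limma adjusted p = 7.92e-09). CARS had at most 0.0815 FPKM in 2-cells and 0.658 FPKM in 4-cells, and 6.66, 11.1 and 15.1 FPKM in blastocysts, a rise of 3.51. As CARS passed the filter only through blastocysts, its test is given from the fit without the filter (SE 0.13, limma adjusted p = 1.26e-10). SARS had 8.43, 9.91 and 13.6 FPKM in 2-cells, 4.72, 10.6 and 37.1 FPKM in 4-cells and 87.1, 104 and 121 FPKM in blastocysts, a rise of 3.20 (SE 0.28, limma adjusted p = 1.00e-08). These 4 genes also led the rises between blastocysts and 4-cells, at 4.52 for GARS, 3.24 for CARS, 3.06 for QARS and 3.05 for SARS.

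**Figure D2:**
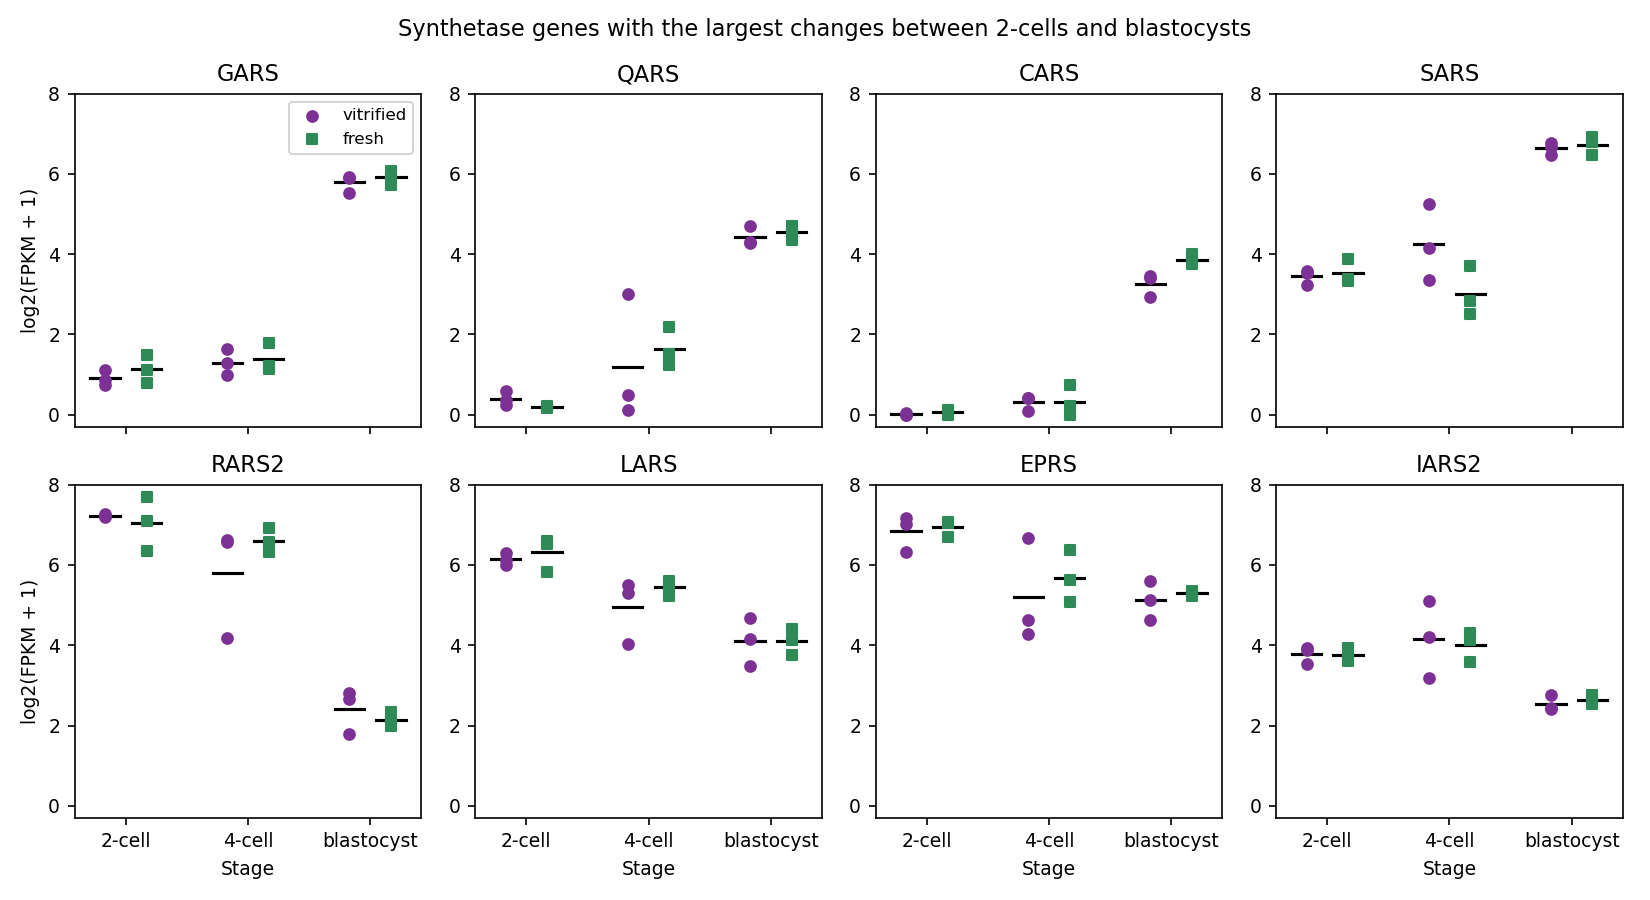
Points are log2(FPKM + 1) of single libraries by stage, vitrified left of fresh, and bars are means of 3 libraries. GARS, QARS, CARS and SARS sit higher in every blastocyst library than in any 2-cell library, and RARS2, LARS, EPRS and IARS2 sit lower.

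RARS2 fell the most. Its lowest, median and highest values were 80.3, 147 and 205 FPKM in 2-cells, 17.0, 93.4 and 119 FPKM in 4-cells and 2.46, 3.69 and 5.98 FPKM in blastocysts. The log2 fold change between blastocysts and 2-cells was -4.85 (SE 0.36, limma adjusted p = 1.32e-09), which is -4.41 relative to the median of all genes. LARS had 56.1, 72.9 and 95.8 FPKM in 2-cells, 15.5, 41.1 and 47.7 FPKM in 4-cells and 10.1, 16.7 and 24.4 FPKM in blastocysts, and it fell by 2.13 (SE 0.27, limma adjusted p = 1.06e-06). EPRS had 78.6, 130 and 144 FPKM in 2-cells, 18.5, 40.5 and 101 FPKM in 4-cells and 23.7, 37.8 and 47.3 FPKM in blastocysts, and it fell by 1.68 (SE 0.35, limma adjusted p = 0.000271). For these 3 genes no blastocyst library reached a 2-cell one. IARS2, the mitochondrial isoleucine enzyme, had 10.6, 12.9 and 14.3 FPKM in 2-cells, 8.13, 16.8 and 33.5 FPKM in 4-cells and 4.36, 5.02 and 5.82 FPKM in blastocysts. Its log2 fold change between blastocysts and 2-cells was -1.17 (SE 0.26, limma adjusted p = 0.000463), but -0.57 and not called with scaling by the median ratio and -0.61 after quantile normalization.

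Between blastocysts and 4-cells, 18 synthetase genes were called higher and 3 lower, where 24.8% and 37.0% of all genes tested were called. The same counts came out over all 34 genes without the filter, where 11.4% and 17.0% were called. RARS2 changed by -3.91, IARS2 by -1.49 and LARS by -1.09. The call of LARS was lost without vitrified 4-cell replicate 2 (-0.96), without vitrified blastocyst replicate 1 (-0.94) and under both other scalings, where it was -0.48 with the median ratio and -0.73 after quantile normalization. IARS2 lost its call there too, at -0.93 with the median ratio and just inside the threshold after quantile normalization.

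Fewer genes differed between 4-cells and 2-cells. Of the 32 tested, 2 were called higher and 2 lower, where 8.83% and 8.09% of all genes were called. Without the filter it was 0 higher and 2 lower of 34, where 3.52% and 3.36% were called. EPRS had a log2 fold change of -1.45 (SE 0.35, limma adjusted p = 0.00468) and LARS one of -1.04 (SE 0.27, limma adjusted p = 0.00751). QARS was at 1.13 (SE 0.36, limma adjusted p = 0.0241). AIMP2 was at 1.20 (SE 0.42, limma adjusted p = 0.0365). These calls leaned on single libraries. Without vitrified 4-cell replicate 3, QARS was at 0.68, AIMP2 at 0.67 and LARS at -0.81, and EPRS alone was called. Without vitrified 4-cell replicate 2 the count was 7, with RARS2, AIMP1 and HARS added, and without vitrified 4-cell replicate 1 it was 6. LARS was also just short of the threshold without vitrified 2-cell replicate 2, fresh 2-cell replicate 2 or 3 (-0.97) or fresh 4-cell replicate 2 (-0.98) and with scaling by the median ratio (-0.99). QARS was also lost without vitrified 2-cell replicate 3 (1.09) or fresh 4-cell replicate 1 (1.00), and AIMP2, at 1.20 here and 1.07 after quantile normalization without a call, kept its call in just 4 of the 12 fits that left out a library of these stages. In fresh libraries alone, EPRS (-1.25), QARS (1.45) and AIMP2 (1.31) were called along with the cytosolic isoleucine gene IARS, where 1220 of 10489 genes were called. None of the 32 was called in vitrified libraries alone, where 1526 of 10310 genes were. EPRS was at -1.64 there (SE 0.58, limma adjusted p = 0.0808).

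The stage changes were set side by side in the fresh and the vitrified libraries. Between blastocysts and 2-cells, 20 of the 31 genes tested in both were called in the same direction in both, out of 21 called in fresh and 22 in vitrified libraries. RARS2 changed by -4.81 in vitrified and -4.90 in fresh libraries, and GARS by 4.88 in vitrified and 4.78 in fresh libraries. Over all genes in that contrast, 7409 of 10489 were called in fresh and 7026 of 10310 in vitrified libraries, so the members were near that background. Between blastocysts and 4-cells, 18 of 31 were called in both. All genes called there were 7012 of 10489 in fresh and 6297 of 10310 in vitrified libraries.

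Cytosolic and mitochondrial genes moved unequally between 2-cells and blastocysts. Of the 18 cytosolic genes, 13 were called higher, 2 lower (LARS and EPRS) and 3 not (NARS at 0.78, TARS at -0.26 and DARS at -0.67), with a median change of 2.16. Of the 14 mitochondrial genes, 4 were called higher, 2 lower (RARS2 and IARS2) and 6 not, while AARS2 and VARS2 were not tested. Their median over all 14 was 0.53 without the filter. The 4 that rose were FARS2 at 2.48, EARS2 (glutamate) at 1.75, PARS2 (proline) at 1.60 and TARS2 (threonine) at 1.51, and they averaged 2.88 to 5.54 FPKM in blastocysts. FARS2, EARS2 and TARS2 passed the filter only through blastocysts. Without the filter the counts were 13 higher and 2 lower of 18 cytosolic genes and 4 higher and 2 lower of 14 mitochondrial genes, where 12.6% and 18.1% of all genes were called. With scaling by the median ratio NARS was called as well. No test of the difference between the 2 groups of genes was made, since genes are not replicates.

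**Figure D3:**
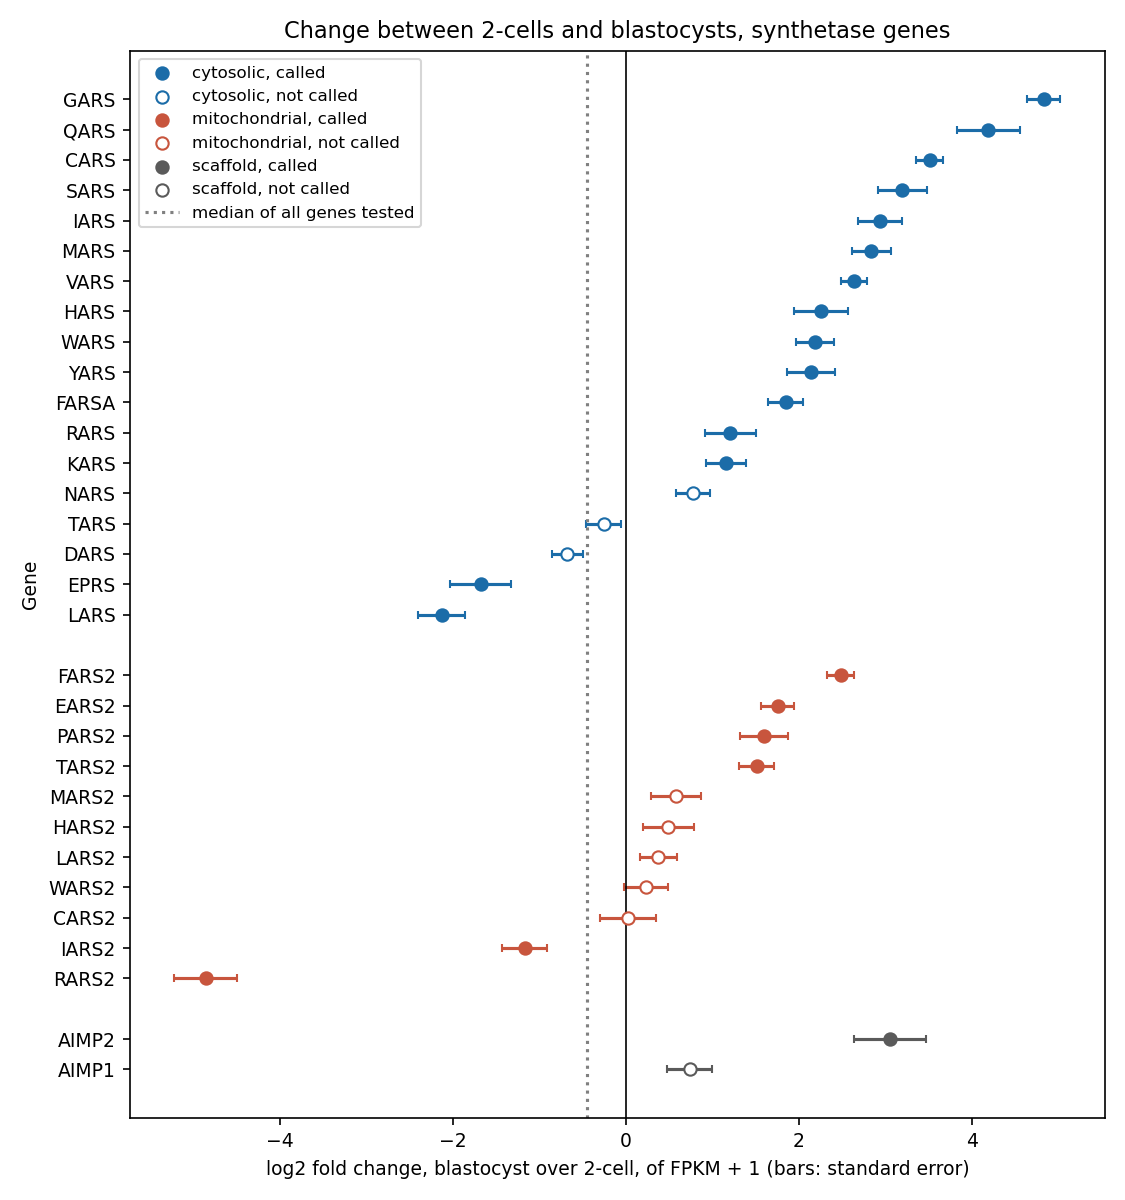
Points are log2 fold changes of FPKM + 1 between blastocysts and 2-cells for genes tested, with standard errors from limma, filled where called, and the dotted line is the median of all genes tested (-0.45). GARS at 4.83 and RARS2 at -4.85 are the extremes, and 13 cytosolic against 4 mitochondrial genes are called higher.

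The summed FPKM of the 18 cytosolic genes was 389 ± 48.6 in 2-cells, 299 ± 35.7 in 4-cells and 623 ± 28.3 in blastocysts (SD, n = 6 libraries each). It was not scaled to the FPKM sum of all genes in a library, which was also higher in blastocysts. That total was 441445 to 496370 in 2-cells, 529172 to 592355 in 4-cells and 640376 to 731543 in blastocysts. The cytosolic sum also leaves out FARSB and AARS1, which fall outside the rule. FARSB averaged 303 FPKM in 2-cells, 240.3 FPKM in 4-cells and 19.54 FPKM in blastocysts. AARS1 averaged 1.217, 2.251 and 54.95 FPKM at these stages in turn. The rise of the cytosolic sum and the shares below thus hold for the members alone, not for all cytosolic synthetase genes. The sum of the 14 mitochondrial genes was 179 ± 37.9 in 2-cells, 127 ± 31.7 in 4-cells and 52.7 ± 6.24 in blastocysts. Mitochondrial genes thus made up 24.6% to 37.5% of the joint sum in 2-cells, 17.1% to 38.4% in 4-cells and 6.87% to 9.52% in blastocysts, and no blastocyst library overlapped an earlier one. RARS2 alone made up 67.7% to 86.5% of the mitochondrial sum in 2-cells and 5.27% to 10.4% in blastocysts. With RARS2 left out, the mitochondrial share was 8.22% ± 1.51 in 2-cells, 12.8% ± 2.66 in 4-cells and 7.26% ± 0.864 in blastocysts, and the ranges of 6.76% to 10.5% in 2-cells and 6.48% to 8.71% in blastocysts overlapped. The 4-cell range without RARS2, 10.1% to 17.7%, still lay above that of blastocysts. That alternative was chosen after seeing the data. The median mitochondrial gene stood at 0.343 to 1.02 FPKM in 2-cells and 2.11 to 3.67 FPKM in blastocysts, higher in every blastocyst library. Within 2-cells, the share was 31.8%, 31.2% and 37.5% in vitrified and 24.6%, 34.9% and 28.4% in fresh libraries, which overlap.

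For 13 amino acids both the cytosolic and the mitochondrial gene were among the 34, with EPRS, which serves glutamate and proline, set against both EARS2 and PARS2. In 2-cells the cytosolic gene was higher in all 6 libraries for 6 pairs and the mitochondrial gene for 4 (arginine, isoleucine, cysteine and histidine), and in blastocysts the cytosolic gene was higher in all 6 libraries for 12 pairs. The remaining pair was FARSA with FARS2, where each was higher in 3 blastocyst libraries. Arginine turned round the most. RARS stood at 15.1 FPKM in 2-cells, 29.3 FPKM in 4-cells and 36.1 FPKM in blastocysts on average, against 145, 83.4 and 4.02 FPKM for RARS2 at the same stages. On the log2(FPKM + 1) scale RARS minus RARS2 was -3.17 ± 0.15 in 2-cells, -1.41 ± 1.52 in 4-cells and 2.89 ± 0.23 in blastocysts (SD, n = 6). IARS minus IARS2 was -2.64 ± 0.29, -2.10 ± 1.05 and 1.46 ± 0.60 at the 3 stages in turn. For leucine, threonine, glutamate and proline the cytosolic gene was above its partner in every library of every stage.

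**Figure D4:**
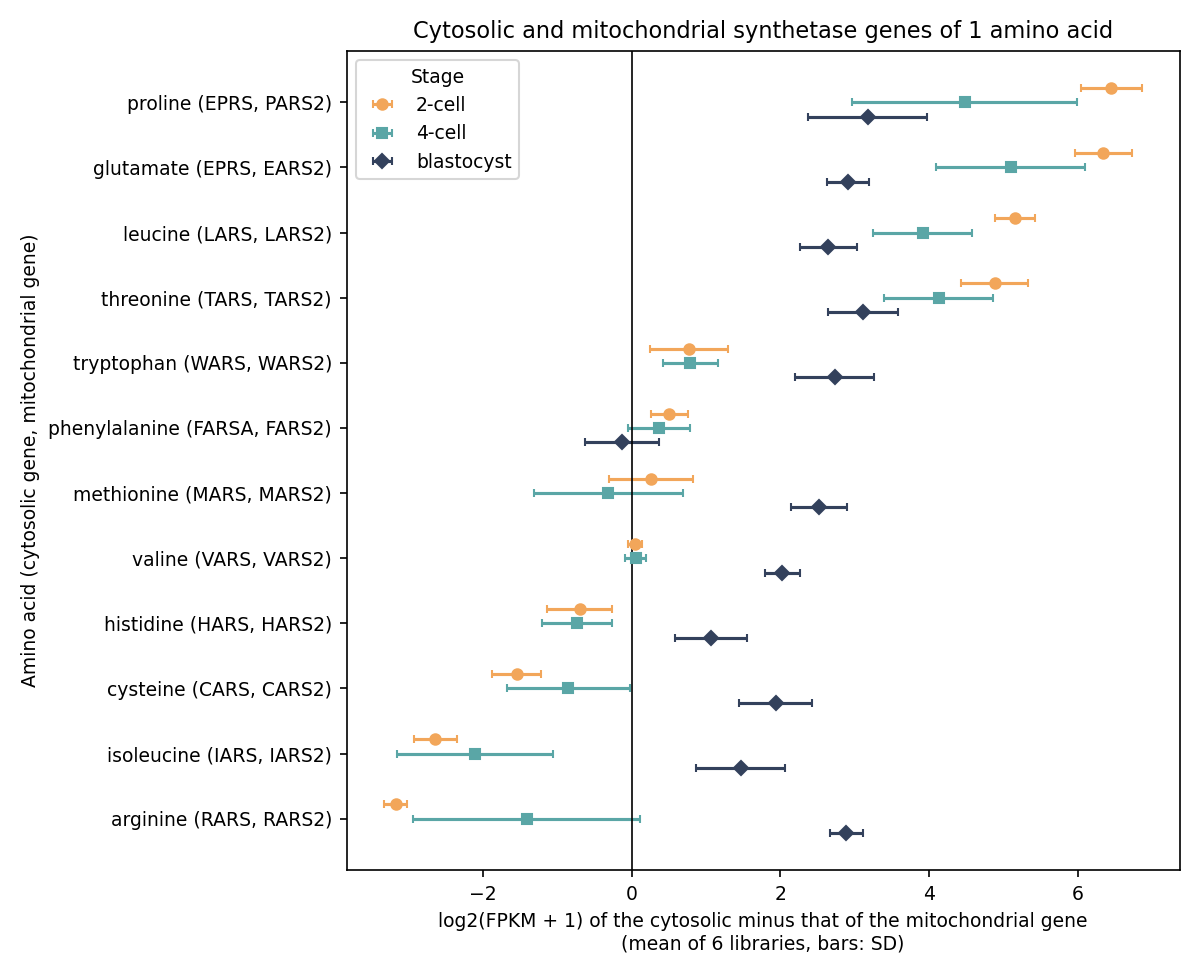
For the amino acids listed, points give the log2(FPKM + 1) of the cytosolic gene minus that of the mitochondrial gene, as the mean of 6 libraries with the SD, for 2-cells, 4-cells and blastocysts. In 2-cells 4 pairs lie left of 0, down to -3.17 for arginine, and in blastocysts all pairs shown but FARSA with FARS2 lie right of it.

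The multi-tRNA synthetase complex did not move as a block. Of its 8 enzymes, QARS, IARS, MARS, RARS and KARS were called higher between blastocysts and 2-cells, LARS and EPRS lower, and DARS was not called. IARS and MARS, for isoleucine and methionine, rose by 2.94 and 2.84, and RARS and KARS, for arginine and lysine, by 1.21 and 1.16. In fresh libraries alone KARS (0.90) and RARS (0.97) were not called and DARS was called lower (-1.03), while in vitrified libraries alone the same 5 enzymes were called higher and the same 2 lower. The 10 cytosolic enzymes outside the complex had 8 genes called higher and 0 lower, where 27.3% and 39.1% of all genes tested were called, and CARS, FARSA and VARS among these 8 passed the filter only through blastocysts. Among the scaffolds, AIMP2 had 0.366, 0.719 and 1.66 FPKM in 2-cells, 0.642, 2.83 and 16.3 FPKM in 4-cells and 8.07, 15.1 and 19.2 FPKM in blastocysts as lowest, median and highest values. It rose by 3.05 (SE 0.42, limma adjusted p = 2.98e-06). AIMP1 had 13.4, 17.6 and 20.9 FPKM in 2-cells, 2.49, 10.7 and 14.1 FPKM in 4-cells and 25.6, 29.5 and 34.2 FPKM in blastocysts. Its change between blastocysts and 2-cells, 0.74, was under the threshold, though called at 1.13 after quantile normalization and 1.39 with scaling by the median ratio, and between blastocysts and 4-cells it was 1.62 (limma adjusted p = 2.04e-05). By the 2 structural classes of synthetase, 8 of 9 cytosolic class I genes and 5 of 8 class II genes were called higher, with LARS lower in class I, and CARS, FARSA and VARS are among those counted as higher. Oocyte genes were lower in sum and trophectoderm genes higher in blastocysts than in 2-cells, by the values given above, and their part in these changes was not tested.

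Vitrified and fresh embryos were compared within each stage with limma, and a gene was called at the study's threshold of an unadjusted p under 0.05 and a change beyond 1 on the log2 scale. None of the 34 synthetase genes was called at any stage, with or without the filter on low values. The genes tested were 21 in 2-cells, 24 in 4-cells and 32 in blastocysts, and 0.450%, 3.46% and 2.26% of all genes tested were called there. Over all genes, the 4-cell calls were 87 higher and 216 lower, against 144 and 136 with scaling by the median ratio, and the blastocyst calls 117 higher and 60 lower, against 53 and 92. A block for the replicate number gave 486 genes in place of 303 in 4-cells, and still 0 members. The median change over the members tested was -0.08 in 2-cells, -0.19 in 4-cells and -0.08 in blastocysts, beside -0.05, -0.16 and 0.11 for all genes tested. A count of 0 among these members is near that background. No member had an adjusted p under 0.05.

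In 2-cells the largest difference was that of WARS, which had 22.9, 20.2 and 14.1 FPKM in vitrified and 41.7, 22.1 and 28.8 FPKM in fresh libraries. The groups overlapped, and the log2 fold change was -0.65 (SE 0.28, limma adjusted p = 1.00). It was the single member of 21 with an unadjusted p under 0.05, where 3.75% of all genes had one. MARS had 1.12, 0.295 and 0.475 FPKM in vitrified and 1.25, 1.55 and 0.845 FPKM in fresh 2-cells, a log2 fold change of -0.46 (SE 0.25). DARS, the cytosolic aspartate enzyme, had 38.4, 39.3 and 35.3 FPKM in vitrified and 40.1, 55.5 and 40.5 FPKM in fresh 2-cells, at -0.25 (SE 0.20). DARS was also the 1 member of 21 tested whose groups did not overlap, where 9.44% of all genes did so. Toward the upper end were RARS2 at 0.19 (SE 0.31) and YARS, for tyrosine, at 0.12 (SE 0.23). RARS2 lay within 146 to 153 FPKM in vitrified 2-cells, inside the fresh range of 80.3 to 205 FPKM. YARS had 2.65, 2.73 and 2.60 FPKM in vitrified and 3.29, 1.61 and 2.39 FPKM in fresh 2-cells, so the vitrified values again lay within the fresh range.

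In 4-cells the members differed more, and so did the libraries of 1 group. SARS had 16.8, 9.24 and 37.1 FPKM in vitrified and 4.72, 11.9 and 6.08 FPKM in fresh 4-cells. The groups overlapped, and the log2 fold change was 1.24 (SE 0.59, limma adjusted p = 0.947), with an unadjusted p above 0.05. SARS was called after quantile normalization (1.33), in the fit of all 18 libraries (1.24) and without vitrified replicate 2 (1.69), where PARS2 was called as well (1.05). PARS2 had 2.26, 0.131 and 2.48 FPKM in vitrified and 1.04, 0.214 and 0.724 FPKM in fresh 4-cells, a log2 fold change of 0.53 (SE 0.50). MARS2 had 4.54, 0.421 and 2.33 FPKM in vitrified and 0.372, 1.60 and 1.54 FPKM in fresh 4-cells, a log2 fold change of 0.51 (SE 0.55). Vitrified replicate 2 was the low library of its group for SARS, PARS2 and MARS2.

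The lowest fold changes in 4-cells were those of RARS2 at -0.81 (SE 0.66), AIMP1 at -0.73 (SE 0.57) and TARS, the cytosolic threonine enzyme, at -0.55 (SE 0.46). AIMP1 had 10.2, 11.1 and 2.49 FPKM in vitrified and 9.91, 12.1 and 14.1 FPKM in fresh 4-cells. TARS had 18.2, 33.2 and 15.6 FPKM in vitrified and 28.4, 30.1 and 36.0 FPKM in fresh 4-cells. In RARS2, AIMP1 and TARS, vitrified replicate 3 was the lowest of all 6 libraries. AIMP2 had 1.18, 0.642 and 16.3 FPKM in vitrified and 3.25, 2.40 and 4.84 FPKM in fresh 4-cells, and QARS had 0.391, 0.0785 and 7.02 FPKM in vitrified and 3.51, 1.37 and 1.86 FPKM in fresh 4-cells. With vitrified replicate 3 both groups overlapped, at -0.15 for AIMP2 and -0.45 for QARS, and without it both genes were called lower, at -1.21 for AIMP2 and -1.35 for QARS (limma adjusted p = 0.755 for AIMP2 and 0.699 for QARS). None of the 24 had an unadjusted p under 0.05 or groups that did not overlap, where 3.72% and 11.1% of all genes did.

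In blastocysts AIMP2 had 8.07, 11.5 and 12.3 FPKM in vitrified and 17.9, 19.2 and 18.9 FPKM in fresh libraries. All 3 vitrified values lay below the fresh ones, at 10.6 ± 2.24 against 18.7 ± 0.661 FPKM (SD, n = 3 each), and the log2 fold change was -0.78 (SE 0.20, limma adjusted p = 0.152). WARS was at 90.0 ± 8.69 FPKM in vitrified and 139 ± 19.7 FPKM in fresh blastocysts (SD, n = 3 each), again without overlap, with a log2 fold change of -0.62 (SE 0.17, limma adjusted p = 0.178). CARS had 9.86, 9.56 and 6.66 FPKM in vitrified and 15.1, 12.4 and 12.7 FPKM in fresh blastocysts, without overlap, at -0.58 (SE 0.21, limma adjusted p = 0.237). The change in each of the 3 was under the threshold of 1.

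At the upper end, IARS had 10.9, 28.0 and 26.8 FPKM in vitrified and 13.9, 11.3 and 11.1 FPKM in fresh blastocysts. Vitrified replicate 1 lay below every fresh library, and the log2 fold change was 0.70 (SE 0.35, limma adjusted p = 0.372). Without that library it was 1.12 and called (limma adjusted p = 0.0866). TARS had 33.7, 40.3 and 38.9 FPKM in vitrified and 24.7, 27.3 and 28.1 FPKM in fresh blastocysts, at 0.47 (SE 0.16, limma adjusted p = 0.230). RARS had 51.8, 30.6 and 44.5 FPKM in vitrified and 26.8, 34.6 and 28.0 FPKM in fresh blastocysts, at 0.47 (SE 0.23). TARS did not overlap between the groups and RARS did.

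DARS and KARS also had an unadjusted p under 0.05 in blastocysts. DARS averaged 30.1 ± 2.34 FPKM in vitrified and 21.4 ± 0.243 FPKM in fresh blastocysts (SD, n = 3 each), with a log2 fold change of 0.47, and KARS averaged 48.6 ± 2.49 FPKM in vitrified and 36.4 ± 1.74 FPKM in fresh blastocysts, with a log2 fold change of 0.41. In all, AIMP2, WARS, CARS, TARS, DARS and KARS, 6 of the 32 members, had an unadjusted p under 0.05, where 16.2% of all genes had one, and 9 of 32 had groups that did not overlap, where 22.6% of all genes did. These shares are near those of all genes. Summed over the 5 trophectoderm genes, vitrified blastocysts held 1947 to 3349 FPKM and fresh blastocysts 3549 to 3939 FPKM. KRT8 averaged 847 FPKM in vitrified and 1349 FPKM in fresh blastocysts, KRT18 1584 and 2321 FPKM, and CDX2 2.16 and 3.58 FPKM. GATA3, at 30.8 FPKM in vitrified and 23.4 FPKM in fresh blastocysts, and TFAP2C, at 31.9 and 19.85 FPKM, went the other way. The part of these differences in the values above was not tested.

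**Figure D5:**
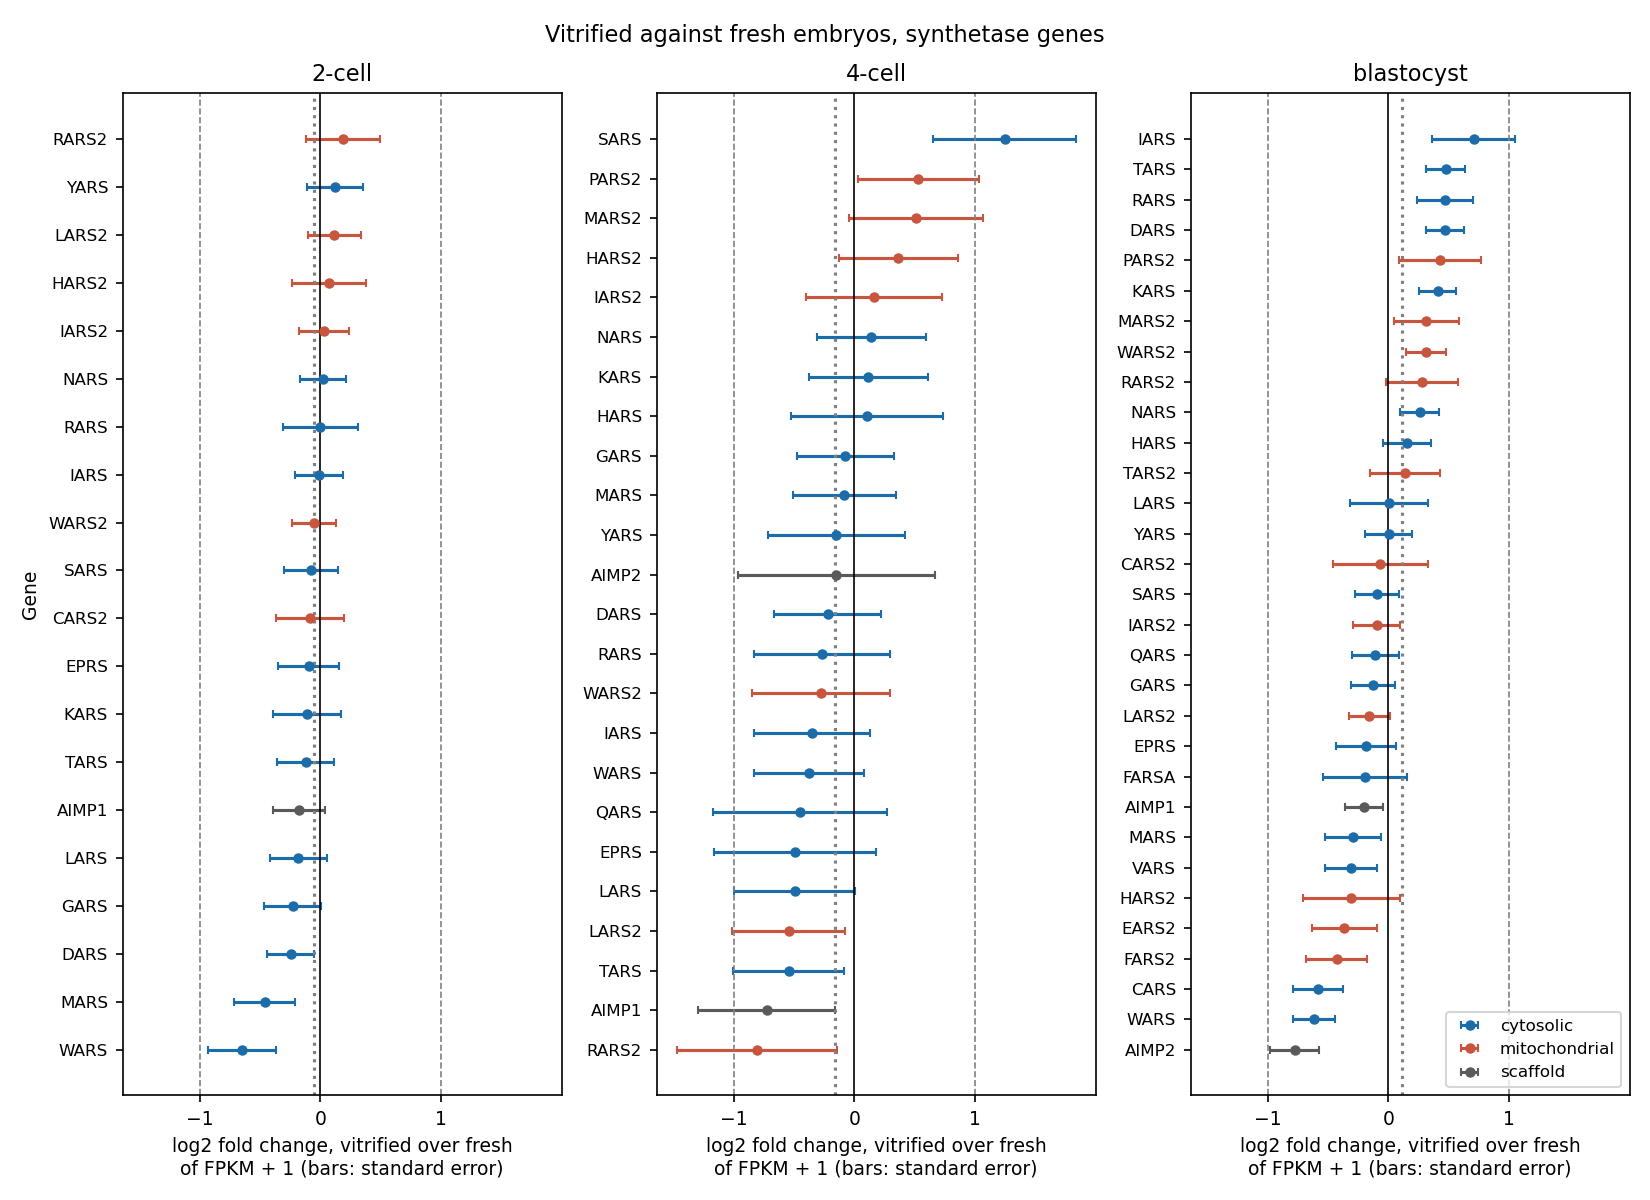
Points are log2 fold changes of FPKM + 1, vitrified over fresh, with standard errors from limma, for members tested at each stage, dashed lines mark the threshold of 1 and dotted lines the median of all genes tested. SARS in 4-cells (1.24, with an unadjusted p above 0.05) is the single point beyond a dashed line, and no member is called.

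An interaction term in the fit of all 18 libraries asked whether vitrified and fresh embryos differed unequally at different stages. No member had an adjusted p under 0.05, where 0.0176% of all genes had one between 4-cells and 2-cells, 0.0264% between blastocysts and 4-cells and 0.0176% between blastocysts and 2-cells. Of the 32 members tested, 2, 2 and 0 had an unadjusted p under 0.05 in these 3 contrasts, where 7.36%, 11.4% and 3.19% of all genes had one, so the members were at or under that background. SARS was 1 of them in the first 2 contrasts. For SARS the effect was 1.32 higher in 4-cells than in 2-cells (SE 0.56, limma adjusted p = 0.615). The difference between blastocysts and 4-cells was -1.34 (SE 0.56, limma adjusted p = 0.381).

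Genes that work beside the synthetases were read from the same fits. Of the 47 tested between blastocysts and 2-cells, 27 were called higher and 5 lower, where 27.3% and 39.1% of all genes were. The 47 include PHGDH, SESN2, TRIB3 and ELAC2, which passed the filter only through blastocysts. The count without the filter is not given here, so these counts lean toward genes high in blastocysts. All 3 matched genes of the elongation factor 1 list were called higher in blastocysts than in 2-cells. EEF1B2 was at 5.44, EEF1D at 5.00 and EEF1E1, the third scaffold of the complex, at 1.73. In 4-cells EEF1E1 was at 28.0 to 192 FPKM, against 27.2 to 43.4 FPKM in blastocysts. EEF1E1 averaged 33.1 ± 6.15 FPKM in blastocysts and 9.24 ± 1.59 FPKM in 2-cells (SD, n = 6 each). Of 10 mitochondrial translation factors, 5 were called higher and 1 lower. TUFM, the mitochondrial elongation factor Tu, rose by 3.28 and TSFM, its exchange factor, by 3.65, while GFM2, a factor for ribosome recycling, fell by 1.83. None of the 3 genes of the mitochondrial glutamine route (GATB, GATC and QRSL1), which stands in for a glutamine synthetase, was called in that contrast.

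The counts of the next lists stand beside 27.3% of all genes tested called higher and 39.1% called lower between blastocysts and 2-cells. Of 5 matched genes for proofreading and for recycling of stalled tRNA, 3 were called higher in blastocysts than in 2-cells, among them PTRH2, a peptidyl-tRNA hydrolase, at 3.92 and AARSD1, an editing protein for mischarged alanine tRNA, at 2.44. The 5 matched genes of the selenocysteine route split, with EEFSEC, its elongation factor, at 2.48 and SEPHS1 at 1.75, and with SECISBP2, which binds the selenocysteine signal, at -2.95 and SEPSECS, which makes selenocysteine on its tRNA, at -2.30. Of 9 genes for tRNA maturation and export, 5 were higher and 1 lower. TRNT1, which adds the CCA end that every synthetase needs, fell by 2.72, to 7.38 ± 3.09 FPKM in blastocysts, against 52.3 ± 12.4 FPKM in 2-cells (SD, n = 6 each). RTCB, the tRNA ligase, rose by 1.86. Among 12 genes of the amino acid response, in which uncharged tRNA activates a kinase and thereby the factor ATF4, 9 were called higher and 1 lower. ATF4 itself rose by 3.50, asparagine synthetase ASNS by 2.46, PHGDH of serine synthesis by 4.92 and the transporter subunit SLC3A2 by 5.06. SLC7A11 was lower, at 6.08 to 15.4 FPKM in 2-cells and 0.691 to 4.13 FPKM in blastocysts. EIF2AK4 was at 5.84 to 11.3 FPKM in 2-cells and 2.93 to 7.47 FPKM in blastocysts, which overlap. PHGDH, SESN2 and TRIB3 of this list and ELAC2 of the tRNA maturation list passed the filter only through blastocysts. A fit of these genes without the filter is not given here.

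Of these neighbouring genes, 3 of the 40 tested in 4-cells were called between vitrified and fresh embryos, where 3.46% of all genes were, against 0 of 35 in 2-cells and 0 of 44 in blastocysts. DDIT3, a stress-induced factor downstream of ATF4, had 32.1, 28.9 and 98.4 FPKM in vitrified and 16.4, 17.8 and 14.0 FPKM in fresh 4-cells, a log2 fold change of 1.44 (SE 0.54, limma adjusted p = 0.947). Without vitrified replicate 3 it was 0.89, and without any 1 of the fresh replicates its unadjusted p was above 0.05, so that the call was lost in 4 of the 6 fits without 1 library. MRRF, the mitochondrial ribosome recycling factor, had 14.5, 16.8 and 10.3 FPKM in vitrified and 30.0, 32.6 and 35.8 FPKM in fresh 4-cells, a log2 fold change of -1.21 (SE 0.43, limma adjusted p = 0.947). Its unadjusted p was above 0.05 without fresh replicate 2 and without fresh replicate 3. PSAT1, of serine synthesis, had 4.65, 5.86 and 4.56 FPKM in vitrified and 16.5, 10.3 and 9.73 FPKM in fresh 4-cells, a log2 fold change of -1.10 (SE 0.44, limma adjusted p = 0.947), and its call was lost under both other scalings, at -0.92 and -0.95, and without vitrified replicate 1 (-1.06) or fresh replicate 1 (-0.88), 2 (-1.19) or 3 (-1.23). In all 3 genes the vitrified and fresh libraries did not overlap, which held for 11.1% of all genes tested in 4-cells. As the 3 were picked by their calls in the same libraries, this adds no support.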

How the data were processed

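The authors used Cutadapt for trimming, FastQC for quality, Bowtie2 and HISAT2 for alignment to the pig genome, and StringTie for the FPKM of each library. Tool versions, genome build and annotation release are not given in the sources used here. SMART-Seq libraries and 3 biological replicates are described in the paper, and a small RNA protocol in the labels. The deposited FPKM values list 0 as 0.0001. The authors' fold change, p-value, q-value and significance columns were not used. FPKM carry no counts, so depth behind a value is unknown and precision comes from the spread between 3 libraries.

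Samples were grouped by their labels. The 3 tables were joined by gene identifier, and log2(FPKM + 1) was fitted with a variance trend in limma 3.58.1 (R 4.3.3). Genes needed 1 FPKM in 3 libraries of the fit. Adjusted p-values are Benjamini-Hochberg over all genes tested, and limma was tested on simulated data. Members, gene lists and tests were chosen with earlier results of these data known. Named in full were members called in vitrified against fresh embryos, the 3 highest and 3 lowest fold changes per stage, the 4 largest rises and falls per stage contrast and the 3 highest and lowest levels in fresh libraries per stage. Of the other lists, up to 4 called genes were named, and SLC7A11, EIF2AK4, SESN2, TRIB3 and ELAC2 were added by their values. Certain genes that these rules take are not reported here. DARS and KARS in blastocysts, AIMP2 and QARS in vitrified against fresh 4-cells, and further members within each group were chosen by their values. Each fit was repeated with quantile normalization or median-ratio scaling, with a pseudocount of 0.1 and with a replicate block. All but the interaction were also repeated without the filter, with a mean of at least 5 FPKM and without each library. Stage contrasts were repeated in single treatments, and vitrified against fresh comparisons in a joint fit. After the group means were removed, libraries of 1 replicate number correlated at 0.224, 0.369 and 0.416 in 4-cells, at 0.033, -0.112 and 0.113 in 2-cells and at 0.248, 0.047 and 0 in blastocysts, and no source says what a number shares. In 4-cells, libraries of unlike number correlated at -0.405 to 0.229, a range that reaches past the lowest value of like number. The 4-cell values thus hint at pairing but do not settle it. The reported fits have no block at any stage, and the block was run as an alternative at all of them.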

Additional observations from a re-analysis of the deposited data

How the results depend on the processing

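The counts of members called between vitrified and fresh embryos were 0 in 2-cells under every alternative. In 4-cells the count was 1 after quantile normalization and 1 in the fit of all 18 libraries, and it ranged from 0 to 2 when 1 library was left out. In blastocysts it ranged from 0 to 1. Between 4-cells and 2-cells, in place of 4, the count was 7 with a pseudocount of 0.1, 2 without the filter, 0 in vitrified libraries alone and 1 to 7 when 1 library was left out. A mean of at least 5 FPKM left fewer genes to test and gave 12 between blastocysts and 4-cells, in place of 21, and 13 between blastocysts and 2-cells, in place of 22. With the replicate number as a block, 0 members were called between vitrified and fresh embryos at each stage, and the block changed no other call of a member. The interaction count was 0 with a pseudocount of 0.1, under both other scalings and with the replicate block. No interaction was refitted without the filter or without a library. The mitochondrial share of the members' summed FPKM was 8.22% in 2-cells and 12.8% in 4-cells without RARS2, in place of 31.4% and 29.7%. This alternative was added after seeing the data. In blastocysts it was 9.16% without KARS and GARS, in place of 7.81%. In 2-cells, vitrified over fresh, leaving out 1 library gave -0.06 to 0.30 for YARS, negative without fresh replicate 2, and -0.16 to 0.51 for RARS2, negative without fresh replicate 1. No cause of these changes was tested except where fewer genes were tested. Groups of 3 and unknown depth limit what could be detected, most of all in 4-cells and for members under 1 FPKM.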

Other observations

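Synthetase genes without a symbol in the tables were found by their identifiers, or for FARSB by its description, and chosen after the values of the 34 had been seen. AARS1, the cytosolic alanine enzyme, had 1.75, 1.08 and 1.83 FPKM in vitrified and 0.815, 0.962 and 0.870 FPKM in fresh 2-cells, and 51.9, 42.4 and 50.1 FPKM in vitrified and 72.3, 58.7 and 54.4 FPKM in fresh blastocysts. Its log2 fold change between blastocysts and 2-cells was 4.66 (standard error 0.33, adjusted p = 5.66e-10 from limma). FARSB, the partner subunit of FARSA in the cytosolic phenylalanine enzyme, averaged 303 FPKM in 2-cells, 240.3 FPKM in 4-cells and 19.5 FPKM in blastocysts, against 0.646, 0.494 and 5.10 FPKM for FARSA. FARSB changed by -3.87 (standard error 0.27) and FARSA by 1.85 between blastocysts and 2-cells, so the 2 subunit genes of 1 enzyme moved in opposite directions. FARSA passed the filter only through its blastocyst values, and it stayed called in the fit without the filter. Another gene in the tables is described as similar to FARSB, and reads shared between the 2 cannot be told apart here. NARS2 rose by 1.17 and SARS2 by 1.23, for asparagine and serine in mitochondria, and YARS2 was at -0.48 and not called. SARS2 was under 1 FPKM in every 2-cell and 4-cell library, so it passed the filter only through blastocysts. A fit of SARS2 without the filter is not given here.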
